A study of Mus musculus with 3 samples.

Results

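The intergenic sites described here are the regions that the authors' annotation places outside genes, promoters, gene deserts and pericentromeric sequence, on chromosomes 1 to 19. They make up 701 of the 1727 sites (40.6%) in the deposited comparison of PARP-1 occupancy after cocaine with that after saline. Membership was set by the annotation class alone, and both directions of change were kept. After cocaine, PARP-1 signal was higher at 665 of the 701 sites and lower at 36. Over all 1727 listed sites it was higher at 1605 and lower at 122.

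The study used C57BL/6 mice that received cocaine at 20 mg/kg, or saline, injected daily into the peritoneum over 7 days, with tissue taken 30 min after the final injection. No source used here gives age or sex. Each ChIP used nucleus accumbens punches pooled from 10 mice, so a value is an average over animals and over every cell type of the punch. Whether each replicate value came from its own pool and ChIP was not settled by the sources. The labels state 3 replicates per group, which the series' design text calls sequencing replicates and the protocol calls biological ones, but the table held 2 values for cocaine and 3 for saline, and a separate DNA input sample had no column of its own. All coordinates are in mm9, and counts are the authors' normalized read counts.

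PARP-1 is an abundant nuclear enzyme that binds nucleosomes and DNA ends and uses NAD to attach ADP-ribose chains to chromatin proteins, which loosens chromatin locally. It is known from promoters and gene bodies as well as from regions far from any gene, and in the nucleolus it associates with ribosomal DNA. Intergenic sequence holds many distal enhancers, insulators and repeats. ChIP-seq reads the fragments that an antibody to PARP-1 recovers. The nucleus accumbens is a ventral striatal region of the reward circuit.

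Most of the intergenic sites carried a small number of reads. A mean count under 100, a limit taken from earlier results of these data, held for 694 sites, comprising 661 with higher and 33 with lower signal after cocaine. The remaining 7 sites reached means of at least 100 and are described separately. At the 661 higher sites the median normalized count was 15.6 and 15.9 in the 2 cocaine replicates, against 4.25, 4.56 and 4.37 in the 3 saline replicates. In reads, these medians were 19 and 14 after cocaine and 4, 5 and 4 after saline. Both cocaine replicates were high, and the 3 saline replicates were alike and low. The sites had been listed for a difference on these same libraries, so this agreement was built in.

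**Figure D1:**
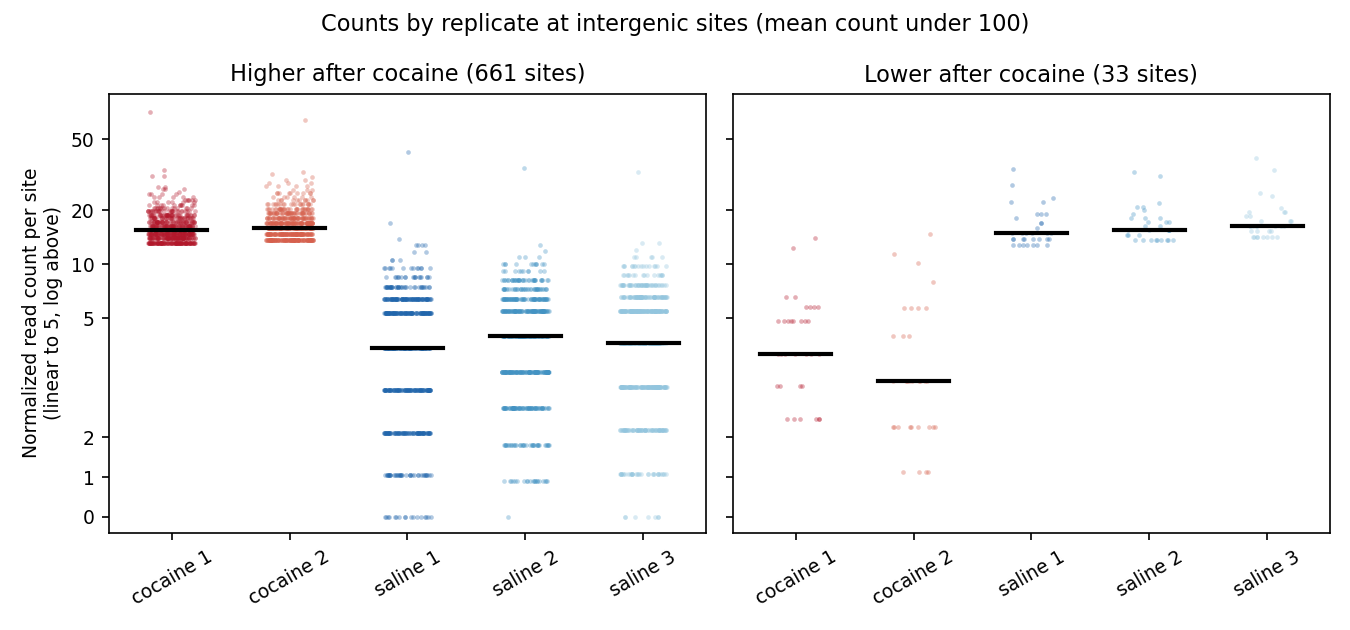
Normalized read count (vertical axis, linear to 5 and log above) of each intergenic site with a mean count under 100 in each replicate, with 661 higher sites on the left and 33 lower sites on the right. Points are sites and black bars medians; the bands are whole reads, and the cocaine points on the left start sharply at 13.14 and 13.64.

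The lower edge of the cocaine counts was sharp. No higher site had fewer than 16 reads (13.14 normalized) in cocaine replicate 1 or 12 reads (13.64) in replicate 2, and 31 sites sat at both minima. Saline counts reached 0 at 25 higher sites, always in a single replicate, of which 17 were in saline replicate 1, 1 in replicate 2 and 7 in replicate 3. Cocaine replicate 2 exceeded replicate 1 at 383 of the 661 sites and the reverse held at 278. Only 58 higher sites had a cocaine mean above 20, and 2 had one above 30. Because reads were so few, 51 of the 694 sites shared their whole set of read counts with at least 1 other site.

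By the values of the authors' deposited table, the 661 higher sites changed by a median of 1.84 on the log2 scale, with quartiles of 1.68 and 1.99. It was also 1.84 over all 1567 higher sites of the table below the same limit. As ratios of replicate means, the members ranged from 1.83-fold to 8.60-fold, with a median of 3.57-fold. For the lower 33 sites the median from the authors' deposited table was -2.06, beside -2.04 for all 91 lower sites under the limit. Their folds ran from 2.42 to 8.12, with a median of 4.16.

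All 694 sites under the limit had groups that did not overlap, as did 4 of the other 7, and these 698 compare with 99.0% of all listed sites. The cocaine values lay entirely above the saline values at 663 sites (94.6% of members, against 92.2% of all 1727 sites) and entirely below at 35 (4.99% against 6.72%). limma's test on log2(count + 1), with Benjamini-Hochberg adjustment over all 1727 sites, gave an adjusted p under 0.05 at 655 higher sites. These were 93.4% of members, against 90.2% of all listed sites. Among lower sites 33 passed, or 4.71% of members against 5.27% of all listed sites. An exact conditional test on the reads recovered from the counts, added after seeing the data, passed 663 higher sites (background 91.9%) and 34 lower ones (6.31%). That test covers counting error only, takes PCR-amplified reads as independent, and leaves out the spread between replicates. The authors' deposited adjusted p was under 0.05 at 700 members, against 99.0% of all sites. The members' shares were thus near those of the whole table. Every listed site had been selected by the authors on the same libraries, so neither count is independent evidence of a difference. Fewer members passed in both directions when either cocaine replicate was left out. Without cocaine replicate 1 the median limma log2 fold changes were 1.74 (higher) and -1.95 (lower). Without cocaine replicate 2 they were 1.66 and -1.58. Each of those fits had 1 cocaine sample, assumed to vary like the saline samples.

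Of the sites under the limit, 7 did not pass limma, with adjusted p from 0.0501 to 0.0587. All 7 were higher sites, and 6 of them had a saline replicate at 0 reads.

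**Figure D2:**
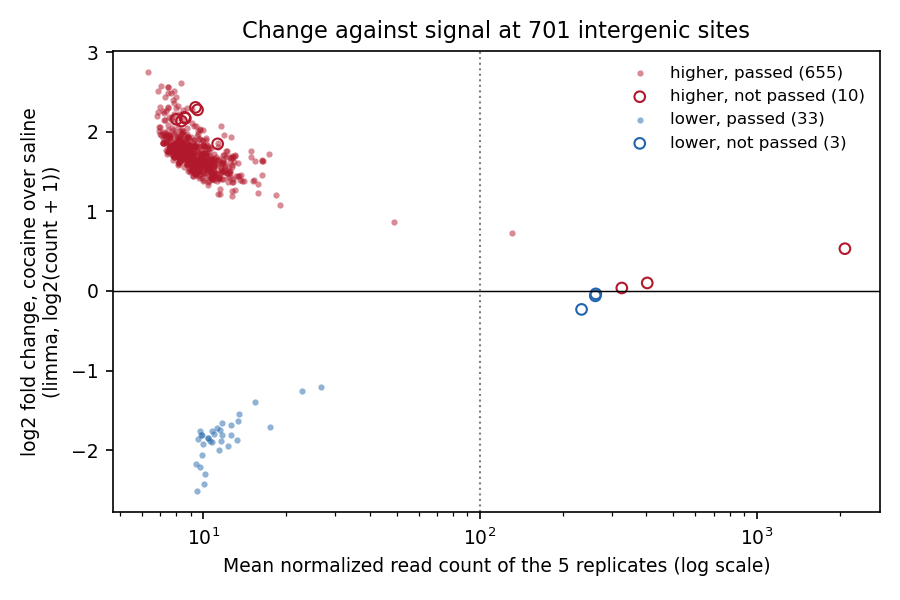
log2 fold change of cocaine over saline from limma (vertical axis) against the mean normalized count of the 5 replicates (log axis) for the 701 intergenic sites; filled points passed at an adjusted p under 0.05, open circles did not, and the dotted line marks a mean of 100. The 661 higher and 33 lower sites left of the line form separate clouds, while 6 of the 7 sites to its right did not pass.

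Means in the following are ± SD over 2 cocaine and 3 saline replicates, and limma's log2 fold changes are ± SE. The largest limma change among the higher sites was on chromosome 19 (3966301 to 3967300). This site had 13.14 and 13.64 normalized reads after cocaine and 0, 3.65 and 1.09 after saline. Its limma log2 fold change was 2.75 ± 0.63, with an adjusted p of 0.00869, and both cocaine values were at the minimum described above. With a prior spread that followed the signal, limma gave it an adjusted p of 0.0635. The nearest in size was a site on chromosome 2 (112932901 to 112934000). It had 14.79 and 19.32 after cocaine and 1.06, 0.91 and 5.46 after saline, a change of 2.61 ± 0.58 with a limma adjusted p of 0.00802. One saline replicate held most of the saline reads there.

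A site on chromosome 5 (52802001 to 52803100) had the tightest low values of this set. Its counts were 13.97 and 15.91 after cocaine and 2.12, 0.91 and 2.18 after saline, and the groups were far apart. Its limma log2 fold change was 2.58 ± 0.32 with an adjusted p of 0.00537, the smallest value among the members and shared by many of them. In the authors' deposited table its enrichment over background was 7.29 after cocaine and 0.89 after saline, and its adjusted p was 1.17e-05. Sites on chromosome 5 (14436301 to 14437300) and chromosome 6 (117132701 to 117133700) held the same counts in all 5 replicates, 13.14 and 17.04 after cocaine and 4.25, 2.74 and 0 after saline. Their equal changes of 2.57 ± 0.72 (limma adjusted p = 0.0154) show how coarse the scale is at this depth.

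More reads lay behind a site on chromosome 4 (127743701 to 127745600), 1900 bases long. It rose from 8.54 ± 1.27 to 30.5 ± 4.53, with 33.68 and 27.27 after cocaine and 8.50, 7.29 and 9.83 after saline. Here limma gave 1.72 ± 0.26 and an adjusted p of 0.00537. Such long sites were rare, since 370 of the 661 higher sites (56.0%) had the minimum length of 1000 bases and 14 exceeded 1500. A site on chromosome 9 (13707901 to 13709000) rose from 2.36 ± 1.16 to 15.9 ± 1.59 normalized reads.

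Among the sites that fell, the largest limma change was on chromosome 17 (70212201 to 70213200). Its counts were 2.46 and 1.14 after cocaine and 14.87, 13.68 and 15.28 after saline. The limma log2 fold change was -2.52 ± 0.29, with an adjusted p of 0.00537, and the authors' enrichment dropped from 3.31 to 0.39. A site on chromosome 2 (63172701 to 63173700) fell from 15.3 ± 0.96 to 2.22 ± 1.52, and one on chromosome 4 (143445201 to 143446200) from 15.2 ± 0.32 to 2.63 ± 2.10. On chromosome 9 (3901801 to 3902800) the counts fell from 14.6 ± 1.53 to 2.37 ± 0.13. Chromosome 18 held a pair of the named lower sites (45226001 to 45227000 and 90105101 to 90106200), with counts of 3.29 and 2.27 after cocaine at the first, 2.46 and 4.55 at the other, and no saline count under 13.68 at either. The lower site with the smallest deposited adjusted p under the limit, on chromosome 13 (13036401 to 13037900), had 27.61, 20.97 and 25.11 after saline and 5.75 and 7.95 after cocaine. Although its groups were well apart, its enrichment after saline was 0.90, below the authors' background.

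The lower sites mirrored the higher ones in having a sharp edge, now in saline. Their saline counts were at least 12.74, 13.68 and 14.19, with medians of 14.87, 15.50 and 16.38. After cocaine the medians were 4.11 and 3.41. Of the 33, 23 (69.7%) were 1000 bases long and none exceeded 1500.

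The authors' enrichment relates a group's mean to a background they set, and a value of 1 equals that background. After cocaine 657 of the 661 higher sites lay above 1 and 499 (75.5%) above 2, with a median of 2.70. After saline the median was 0.80, and 459 sites were at or below 1. At 455 higher sites (68.8%) the signal was at or below background after saline and above it after cocaine. At 202 it was above background in both groups. The other 4 were at or below background in both. Among the lower 33 sites, 30 went from above background after saline to at or below it after cocaine, and the other 3 stayed at or below it. Enrichment after cocaine was at most 0.66 at these lower sites. For all 1567 higher sites of the table under the limit, median enrichment was 2.64 after cocaine and 0.78 after saline. For all 91 lower ones it was 0.36 and 1.44. Sites had been listed on these same libraries. The cocaine counts of higher members started at 13.14 and 13.64, so values above 1 after cocaine were largely built in. Crossing the background is therefore no independent evidence of a change.

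**Figure D3:**
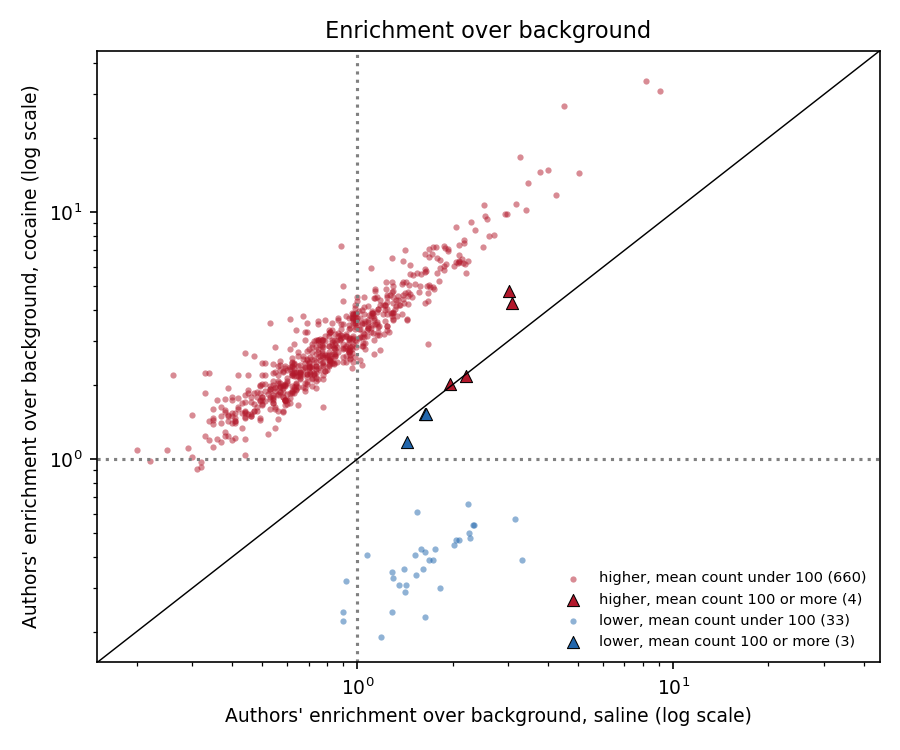
The authors' enrichment over background after cocaine (vertical, log axis) against that after saline (horizontal, log axis) at the intergenic sites; dotted lines mark a value of 1, the diagonal equality, and 1 site with an infinite ratio is left out. Most higher sites lie at the upper left (455 of 661), 30 of the 33 lower sites lie at the lower right, and the 7 sites of high count (triangles) lie above 1 in both groups.

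The background itself, obtained by dividing the saline mean by its enrichment, had a median of 5.88 normalized reads where signal was higher after cocaine and 9.33 where it was lower. Their quartiles were 3.96 and 7.80, and 7.87 and 12.3. Enrichment after cocaine passed 10 at 13 higher sites, 1 of them infinite, and at these sites the background was at most 2.42 normalized reads. The highest finite value was 33.8, at a site on chromosome 15 (74441701 to 74443100) whose counts were 16.43 and 18.18 after cocaine and 1.06, 3.65 and 7.64 after saline.

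Set beside the other large classes on the same chromosomes, the intergenic sites mostly had values nearer to those of gene bodies than of gene deserts. The differences were not tested. Under the count limit, 33 of 694 intergenic sites were lower (4.76%, exact Clopper-Pearson 95% interval 3.30 to 6.61%). The share was 2.71% (1.61 to 4.25%) of 664 gene body sites and 16.3% (11.5 to 22.0%) of 209 gene desert sites. These intervals cover the counting of sites only. The median enrichment of higher sites after cocaine was 2.70 for intergenic sites, 2.72 for gene bodies and 2.10 for gene deserts. Their median background after saline was 5.88, 5.55 and 7.90 normalized reads in the same order. Their median log2 fold changes were 1.84, 1.85 and 1.80 in the authors' deposited table. For lower sites these medians were -2.06, -2.0 and -2.045, so there the intergenic value was nearer to that of gene deserts.

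Intergenic sites occurred on all 19 autosomes, from 17 on chromosome 19 to 71 on chromosome 1. They were 56.1% of the listed sites of chromosome 13 and 28.0% of those of chromosome 8. Lower sites were most numerous on chromosomes 13 (5 of 55) and 17 (5 of 28), followed by chromosomes 6 (4 of 49) and 9 (4 of 39). Under the count limit chromosomes 13 and 17 also held 4 each. By share, lower sites were 17.9% on chromosome 17, 16.7% on 18 (3 of 18), 10.3% on 9 and 9.09% on 13. Chromosomes 11, 12, 14 and 16 had none among 33, 28, 25 and 25 sites.

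**Figure D4:**
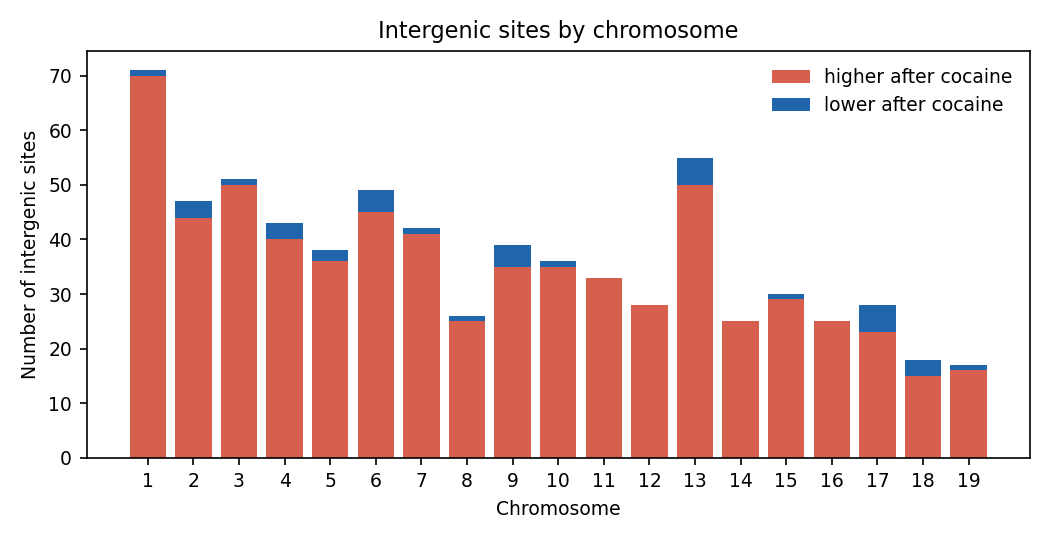
Number of intergenic sites (vertical axis) on each autosome (horizontal axis), stacked by direction. Chromosome 1 has the most sites (71) and chromosome 19 the fewest (17). Lower sites are most numerous on chromosomes 13 and 17 with 5 each, of which 4 each have a mean count under 100.

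The sites were mostly isolated. The nearest listed site of any class was a median of 417.7 kb away, and 85 of the 701 (12.1%) had one within 50 kb. That neighbour was itself intergenic for 71 of them, in a gene body for 12 and within the authors' 3 kb promoter class for 2. Its direction was the same for 76 and opposite for 9. Chained at 50 kb, 71 intergenic sites formed 34 pairs and 1 group of 3. Of these 35 groups, 31 held higher sites only, 4 held both directions and 0 held lower sites only.

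Outside the group of 3, the closest pair lay on chromosome 6, with 0.3 kb between its sites. The first site (31837301 to 31838300) had 18.89 and 14.77 after cocaine and 1.06, 2.74 and 8.73 after saline. The other (31838601 to 31840100) had 18.07 and 21.59 after cocaine and 7.43, 8.21 and 3.28 after saline. Both were high in both cocaine replicates, and their saline replicates were not low in the same order. limma gave 2.07 ± 0.65 and 1.58 ± 0.40, with adjusted p of 0.0224 and 0.0112. Without saline replicate 2 the limma adjusted p of the first was 0.0728. A pair on chromosome 4 (49593301 to 49596200) rose by 1.60 ± 0.31 and 1.56 ± 0.42.

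Opposite changes lay near each other in a few places. On chromosome 9 a site (98604801 to 98605900) rose from 6.08 ± 0.67 to 17.7 ± 0.66 normalized reads, and a site 34.9 kb further on (98640801 to 98641800) fell from 13.9 ± 0.27 to 2.63 ± 2.10. On chromosome 2 one site (50443601 to 50444600) rose by 1.49 ± 0.33 on limma's log2 scale and its neighbour at 35.4 kb (50480001 to 50481000) fell by 1.84. On chromosome 6 a higher site (106901101 to 106902100, 4.11 ± 2.25 to 14.2 ± 0.81) lay 18.8 kb from a lower one (106920901 to 106921900, 16.4 ± 3.27 to 4.58 ± 1.65). All 6 of these sites passed limma's test.

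The table names no gene for an intergenic site, and no mm9 gene annotation was used, so flanking genes were sought only among the genes that held a listed site of their own, whose mm9 ends the table gives. Other genes may lie closer. Of the 701 sites, 27 lay within 50 kb of such a gene, each near a different one, 11 upstream of the start and 16 beyond the end. They comprised 25 higher and 2 lower sites, and all 27 passed limma's test, against 95.5% of all listed sites in either direction. The 25 higher sites had a median fold of 3.45, and the other 636 higher sites under the limit 3.57. At 26 of the 27, the gene's own sites changed in the same direction as the intergenic one. Of all 1727 listed sites 1605 were higher, so most pairs would share a direction whatever their distance.

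**Figure D5:**
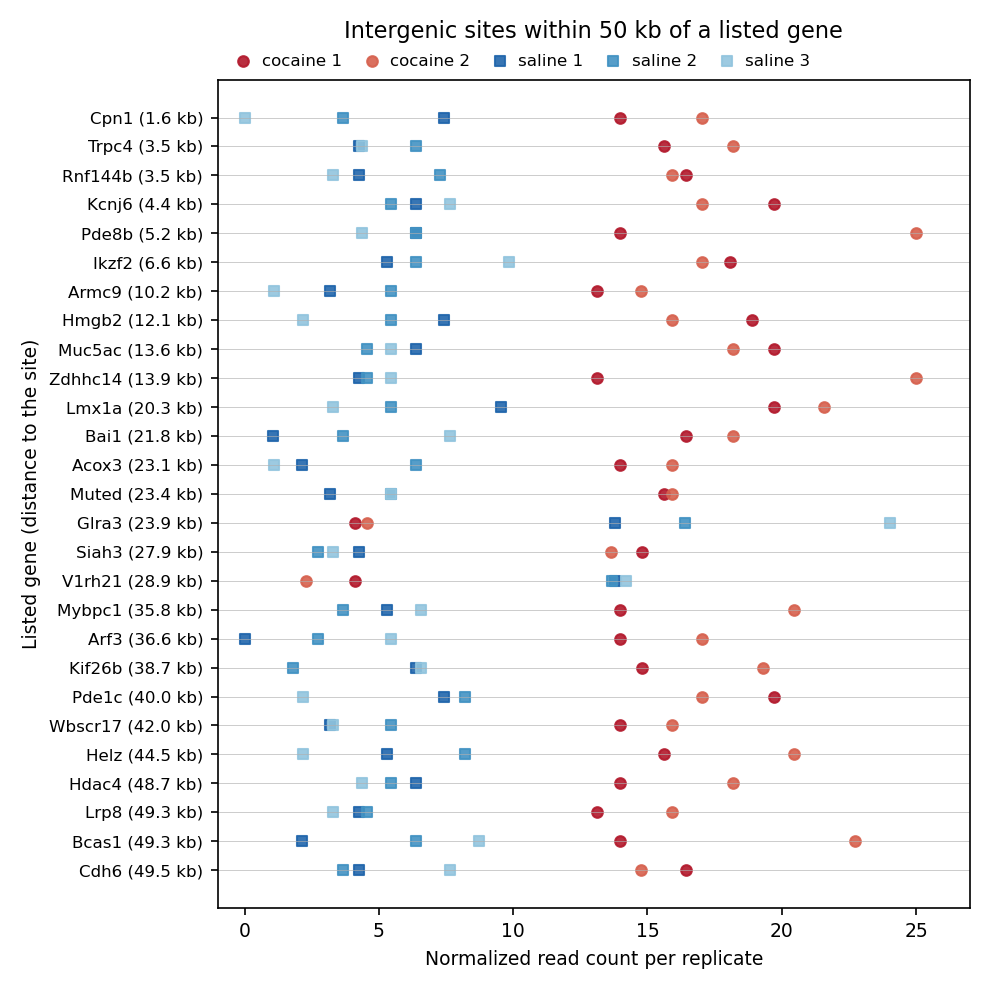
Normalized read count (horizontal axis) in each replicate at the 27 intergenic sites within 50 kb of a gene with a listed site of its own, ordered by distance (given in kb beside the gene). Circles are cocaine and squares saline replicates; the circles lie right of the squares in every row but those of Glra3 and V1rh21.

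The genes are taken here by the role of their product, an order chosen after the values were seen, with no list fixed for it. Trpc4 encodes a calcium-permeable cation channel, and the site 3.51 kb beyond its end (chromosome 3, 54125901 to 54126900) had 15.61 and 18.18 after cocaine and 4.25, 6.38 and 4.37 after saline. Its limma log2 fold change was 1.59 ± 0.27, with an adjusted p of 0.00537, and the site inside Trpc4 rose by 1.52 ± 0.24. The site 4.40 kb upstream of Kcnj6, which encodes an inwardly rectifying potassium channel opened by G proteins, had 19.72 and 17.04 after cocaine and 6.37, 5.47 and 7.64 after saline (chromosome 16, 95223701 to 95225000). It rose by 1.38 ± 0.25 (limma adjusted p = 0.00564), beside 1.58 ± 0.33 at the site within the gene.

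Glra3, which encodes a subunit of the inhibitory glycine receptor, stood the other way round. The intergenic site 23.9 kb upstream of it (chromosome 8, 58394501 to 58395700) had 4.11 and 4.55 after cocaine and 13.80, 16.41 and 24.02 after saline. All saline values exceeded both cocaine values. It changed by -1.81 ± 0.31 on limma's log2 scale (adjusted p = 0.00537), and the site in the gene body also fell, from 14.2 ± 0.60 to 3.35 ± 0.08. V1rh21, a vomeronasal receptor gene of a family of similar copies, was the 1 gene whose own site moved the other way. The intergenic site 28.9 kb upstream (chromosome 13, 22389901 to 22390900) fell from 13.9 ± 0.27 to 3.19 ± 1.30, while the promoter site rose from 4.79 ± 2.30 to 17.7 ± 0.66. The values at this gene are uncertain, since its family holds similar copies and the placement of shared reads was not tested.

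Pde8b and Pde1c encode phosphodiesterases, which break down cyclic nucleotides. The site 5.24 kb upstream of Pde8b, a cAMP-specific enzyme, had 13.97 and 25 after cocaine, a wide spread, and 6.37, 6.38 and 4.37 after saline (chromosome 13, 96025501 to 96026500). It rose by 1.57 ± 0.34 (limma adjusted p = 0.00737). The site 40.0 kb upstream of Pde1c, a calcium- and calmodulin-dependent enzyme, rose from 5.94 ± 3.28 to 18.4 ± 1.90 normalized reads. Near Zdhhc14, the gene of a palmitoyltransferase, the cocaine replicates gave 13.14 and 25 against 4.25, 4.56 and 5.46 after saline.

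Ikzf2, Hmgb2, Lmx1a and Hdac4 are among the flanking genes whose products act in the nucleus. The site 6.58 kb beyond the end of Ikzf2, which encodes the zinc finger factor Helios, had 18.07 and 17.04 after cocaine and 5.31, 6.38 and 9.83 after saline (chromosome 1, 69569801 to 69571200). Although it rose by 1.22 ± 0.31 (limma adjusted p = 0.0115), its enrichment was 1.04 after cocaine and 0.44 after saline, so it only reached background. Upstream of Hmgb2, a gene of a DNA-bending chromatin protein, a site at 12.1 kb rose from 5.03 ± 2.65 to 17.4 ± 2.11 (chromosome 8, 59977401 to 59978500), and the promoter site rose from 1.98 ± 0.83 to 13.4 ± 0.35. The site 20.3 kb upstream of Lmx1a, a LIM homeobox gene of dopamine neuron development, rose from 6.10 ± 3.19 to 20.7 ± 1.32, with an enrichment of 5.04 after cocaine. The one 48.7 kb beyond Hdac4, a histone deacetylase gene, had 13.97 and 18.18 after cocaine and 6.37, 5.47 and 4.37 after saline, and rose by 1.42 ± 0.27.

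The chromosome 15 site of enrichment 33.8 given above lay 21.8 kb beyond the end of Bai1, an adhesion G protein-coupled receptor gene. Lrp8 encodes a reelin receptor, and the site 49.3 kb beyond it rose from 4.03 ± 0.67 to 14.5 ± 1.96. The site 49.5 kb beyond Cdh6, a cadherin gene, rose from 5.18 ± 2.15 to 15.6 ± 1.17. Arf3, the gene of a small GTPase of membrane traffic, had the largest change of the 27, at a site 36.6 kb beyond its end (chromosome 15, 98530501 to 98531500). Its counts were 13.97 and 17.04 after cocaine and 0, 2.74 and 5.46 after saline, or 2.51 ± 0.78 with a limma adjusted p of 0.0214. Without saline replicate 2 this became 0.0511. Closest of all was a site 1.60 kb beyond Cpn1, a carboxypeptidase gene, with 13.97 and 17.04 after cocaine and 7.43, 3.65 and 0 after saline. Its limma adjusted p was 0.0454, and 0.0734 with a pseudocount of 0.5 and 0.0856 without saline replicate 2.

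The remaining 11 genes with an intergenic site within 50 kb were Rnf144b, Armc9, Muc5ac, Acox3, Muted, Siah3, Mybpc1, Kif26b, Wbscr17, Helz and Bcas1. Their sites all rose, with limma log2 fold changes from 1.57 ± 0.32 near Mybpc1, the gene of a slow-muscle myosin-binding protein, to 2.13 ± 0.55 near Acox3, a peroxisomal acyl-CoA oxidase gene. The site near Siah3 had close values within each group, 14.79 and 13.64 after cocaine and 4.25, 2.74 and 3.28 after saline. Near Bcas1, a gene of myelinating oligodendrocytes, the replicates were further apart, at 13.97 and 22.73 after cocaine and 2.12, 6.38 and 8.73 after saline. The limma adjusted p of this site was 0.0263, and 0.0539 without saline replicate 2.

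At the 7 sites of high count the group means differed by 1.03-fold to 1.67-fold. They held 35.3% of all reads at the intergenic sites, and 1 of them passed limma's test. Over the whole list 1558 higher sites passed, 1557 of them under the limit, and all 91 passing lower sites lay under it. The largest of the 7 was a 5700-base site on chromosome 17 (39980601 to 39986300), which alone held 19.9% of the reads at the intergenic sites. It had 2385 and 2736 normalized reads after cocaine and 1858, 1777 and 1674 after saline, a ratio of means of 1.45. Both cocaine values exceeded all saline values. limma's log2 fold change was 0.53 ± 0.23 with an adjusted p of 0.0662, and with a prior spread that followed the signal the adjusted p was 5.02e-04. As background, mouse assemblies carry ribosomal DNA on chromosome 17, where RefSeq's GRCm38.p6 table lists the 18S-related pseudogene Rn18s-rs5. Whether this site overlaps that sequence was not tested, since the builds differ.

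The single high-count site that passed also lay on chromosome 17 (13743801 to 13745600). Its counts were 166.76 and 177.26 after cocaine and 107.25, 103.95 and 98.26 after saline, and the groups were well apart. The limma log2 fold change was 0.73 ± 0.23 (adjusted p = 0.0210), and the adjusted p was 0.0595 with no scaling between libraries. The change was 0.78 without cocaine replicate 1 and 0.69 without cocaine replicate 2, and the site passed in neither fit. This site lay just over the count limit. The one just under it, on chromosome 1 (90145901 to 90147100), had 70.65 and 63.63 after cocaine and 42.48, 34.65 and 32.75 after saline.

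Another high-count site on chromosome 17 (36620901 to 36622200) was lower after cocaine, with 216.05 and 205.67 against 251.67, 240.73 and 251.10. Its limma log2 fold change was -0.23 ± 0.22 with an adjusted p of 0.351, which became 0.00447 with the prior spread that followed the signal. A site on chromosome 13 (3372401 to 3373400) had 254.66 and 254.53 after cocaine and 266.54, 257.14 and 274.03 after saline.

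The group of 3 lay on chromosome 2 within 3.5 kb (27354801 to 27358300). The first of its sites had 340.10 and 321.57 after cocaine and 314.32, 336.47 and 316.60 after saline, and the groups overlapped. In the authors' deposited table its adjusted p was 2.72e-07, for a ratio of means of 1.03, while limma's adjusted p was 0.877. The middle site, higher at 420 ± 20.6 against 391 ± 19.8, shared 500 bases with the last, which was lower at 258 ± 5.32 against 265 ± 5.05. Overlapping sites thus carried opposite directions, and neither passed limma's test (adjusted p = 0.683 and 0.876). The middle site was the 1 intergenic site whose adjusted p in the authors' deposited table was not under 0.05.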

How the data were processed

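PARP-1 ChIP-seq was read from the 1 deposited table of 1727 sites, which the submitters made with diffReps and a negative binomial test, as its name states. The submitters' processing notes name mm9 and CASAVA 1.8.2. No source used here gives the aligner or the handling of duplicates. The deposited replicate cells hold normalized read counts scaled with 1 factor per library. Per the file headers, each group also has its average, a signal on the same scale. The authors' enrichment is a ratio over a background they set. The authors' fold change is on the log2 scale. Each p-value and adjusted p-value of the deposited table is the authors' own. Control was taken as saline from the series' design text and treatment as cocaine. Replicate numbers follow the order in a cell.

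All 8635 values were whole multiples of 1 read within 0.1 read. Each read counted as 0.822 or 1.14 (cocaine) and 1.06, 0.912 or 1.09 (saline), so the shallowest library had 72.3% of the deepest by the authors' scaling. Whole-library totals were not used here. Over the members, libraries held 18181 and 13876 reads after cocaine and 6656, 7857 and 6429 after saline.

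limma 3.58.1 (R 4.3.3) was fitted to log2(count + 1) at all 1727 sites, with Benjamini-Hochberg adjustment. The fit was also run on simulated reads with counting error only and no selection of sites. That run therefore says nothing of error rates in this selected list. Its fold changes understate changes at low counts, and its shared spread fits sites of very high count poorly. limma's p-values measure the spread between these replicates only. Whether that is a spread between pools or between sequencing runs was not settled by the sources. Intervals and the exact conditional test cover counting error only.

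Named sites were, per direction, the 6 with the smallest deposited adjusted p, the 6 with the largest limma change among those passing and the 2 with the highest mean count, with the closest pairs, largest groups and neighbours of opposite direction at 50 kb. Sites near listed genes were added after their values were seen. The members, lists and limits were chosen with earlier results of these data known. Gene lists for flanking genes were not used, because no mm9 annotation was at hand. Intergenic sites on X and Y (9) were left out.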

Additional observations from a re-analysis of the deposited data

How the results depend on the processing

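Leaving out 1 saline replicate at a time gave 631 to 661 higher and 33 lower intergenic sites passing limma, against 655 and 33. In the main fit 90.2% of all listed sites passed as higher and 5.27% as lower. Fewer sites passed in both directions without either cocaine replicate. The cause was not tested, but each of these fits had 1 cocaine sample. Median limma log2 fold changes then ran from 1.66 to 1.74 and from -1.95 to -1.58. A pseudocount of 4 moved the medians from 1.69 to 1.26 and from -1.80 to -1.33, since a larger pseudocount shrinks changes at low counts. Under the other pseudocount, the trend, no scaling and the restriction to sites under 100, both counts stayed within 1.5 times. An exact conditional test on recovered reads, chosen after seeing the data, called 663 and 34 (91.9% and 6.31% of all listed sites). It covers counting error only and says nothing of the spread between replicates. Among named sites, 3 with changes near 0 turned direction. With no scaling, the chromosome 13 site (3372401) went to 0.014 and the last of the chromosome 2 group to 0.039. Leaving out 1 replicate, the first of that group ran from -0.0033, without cocaine replicate 1, to 0.077. The planned edgeR test was not run. Sites of few reads limit precision. No paired analysis was possible because the labels give no replicate numbers.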
